A study of Arabidopsis thaliana with 6 samples.

Results

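Leaf-only transcripts that stayed level across lead doses were read from 32 probe sets, which stand for 32 genes of Arabidopsis thaliana, the thale cress. They were chosen by their measured signals. A member gave at least 100 signal units on all 3 leaf arrays and under 16 on all 3 root arrays, and its highest leaf signal was under 2 times its lowest. The array holds 8297 probe sets, and 3784 of them name exactly 1 gene, for 3592 genes in all. Of these, 40 met the 3 limits, which is 1.06% of the named probe sets. The selection leaves out 8 of the 40 by name, for PSBW, PSAE1, LHB1B2, TAPX and GSTU18, together with any class III peroxidase, glycosyltransferase, cytochrome P450, WRKY and similar family gene. Another 85 probe sets met the same limits but are unnamed here.

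The series measured roots and rosette leaves of hydroponically grown plants of ecotype Col-4, on 1 array for each of 6 groups. Control leaves and control roots received no added lead. The other groups were leaves and roots of plants given 25 ppm or 50 ppm lead as lead nitrate, which was added to the nutrient solution 2 times. All plants had days of 10 h at 22 °C and nights at 18 °C, and were harvested at growth stage 6. The number of plants pooled for each RNA is unstated.

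Rosette leaves are the main photosynthetic organ. Their chloroplasts capture light with chlorophyll held in antenna proteins, fix carbon dioxide in the Calvin-Benson cycle and, with peroxisomes and mitochondria, recycle the product of Rubisco's oxygenase reaction through photorespiration. Root plastids hold little or no chlorophyll, so transcripts of these pathways are textbook examples of leaf expression. The organ difference and the limit on the leaf spread were both used to choose the members, so they are described below without a test. With 1 array per group no value has a replicate, and in bulk samples fewer cells of a type and less RNA per cell cannot be told apart.

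The arrays were close in overall scale, with median signals between 22.3 and 29.3. Per the labels, the 50 ppm root array had an average background of 192.65, and the other 5 had 69.03 to 97.8. The leaf label was checked on RCA, which encodes Rubisco activase: its signal was 3013, 4183 and 3363 in leaves at 0, 25 and 50 ppm, and 14.5, 8.8 and 27.6 in roots. PSBW and PSAE1, photosystem subunits, had a pair of probe sets each that met the same limits as the members, but another PSAE1 probe set gave 38.6, 20.9 and 55.9 in roots. Of the 6 photosystem, antenna and activase genes listed, 3 met the limits on at least 1 probe set, the other being LHB1B2, an antenna gene whose other probe set gave 87.6, 87 and 11.6 in roots. LHCB4.1, with 48.2 to 76.7 in roots, and PSBY, with 17.3 to 31.8, lay over the root ceiling on every root array, and RCA did on the 50 ppm root array. None of the 11 root marker genes looked for had a named probe set, so the root label was not checked in this way.

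Chlorophyll synthesis and light harvesting were represented by PORB, AT1G74470, LIL3:1 and LHCB4.3. PORB encodes protochlorophyllide oxidoreductase B, the enzyme of the light-dependent step of chlorophyll synthesis. Its leaf signal was 1273 without lead, 2026 at 25 ppm and 1665 at 50 ppm. In roots it was 2.5, 8.3 and 2.7. Leaves given lead therefore had the higher PORB values, 1.59 and 1.31 times the control array. AT1G74470, annotated as geranylgeranyl reductase, supplies the phytol tail of chlorophyll. It measured 2558, 3253 and 2662 in leaves and 9.7, 13.2 and 7.4 in roots, so the 25 ppm leaf array was highest and the other leaf arrays lay close together.

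LIL3:1 belongs to the light-harvesting-like proteins and is known in Arabidopsis as a thylakoid partner of geranylgeranyl reductase. Its leaf signal was 743 without lead, 745 at 25 ppm and 476 at 50 ppm, against 3, 2.5 and 1.1 in roots. Unlike AT1G74470, it had its low value at the higher dose, at 0.640 times the control array. LHCB4.3 encodes a minor antenna protein of photosystem II. It measured 363, 628 and 400.1 in leaves and 1.2, 1.4 and 1.7 in roots. The 25 ppm array was 1.73 times the control for LHCB4.3, while the 50 ppm array was 1.10 times. Of the 20 genes listed for chlorophyll and carotenoid synthesis, 2 had a named probe set, PORB and LYC; AT1G74470 is not on that list. LYC, a lycopene cyclase, had 463 and 268.5 in control roots on its probe sets and so was not leaf-only.

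Carbon fixation was represented by PRK and SBPASE, the only genes of the 16 listed for the Calvin-Benson cycle that had a named probe set. PRK encodes phosphoribulokinase, which regenerates the acceptor of carbon dioxide. Its leaf signal was 1241, 1437 and 1418 in dose order, and its root signal 1, 1.6 and 1.7. PRK was among the steadiest members, with a highest over lowest leaf signal of 1.16. SBPASE encodes sedoheptulose-bisphosphatase, an enzyme of the same regenerative phase. It measured 834, 959 and 692 in leaves and 0.9, 1.5 and 3.9 in roots. Its order differed from that of PRK, as the 50 ppm array was the lowest for SBPASE at 0.830 times the control.

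HPR encodes the peroxisomal hydroxypyruvate reductase of photorespiration. It measured 1486, 2042 and 1494 in leaves in dose order and 5.9, 10.8 and 7.1 in roots. The control and 50 ppm leaf arrays were nearly equal, with the 25 ppm array 1.37 times the control. Of the 16 genes listed for photorespiration and carbonic anhydrase, the other one with a named probe set was AT1G11860, which had 178 in control roots and was thus present in both organs. ALDH11A3 is the non-phosphorylating glyceraldehyde-3-phosphate dehydrogenase, which yields NADPH outside the chloroplast. It had leaf signals of 405, 487 and 478 and root signals of 3.2, 2.5 and 12.4. Both arrays of leaves given lead exceeded the control, with log2 ratios of 0.27 and 0.24.

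AOR encodes alkenal/one oxidoreductase, which detoxifies reactive carbonyls formed from oxidised lipids. Its leaf signal was 331 without lead, 414 at 25 ppm and 254 at 50 ppm, and its root signal was 2.3, 2.7 and 1.1. The lowest AOR value thus came from the leaves at the higher dose. AT4G13840, annotated as CER26, is an acyltransferase-like protein linked to elongation of the fatty acids of leaf wax. It was steady at 214, 255 and 237 in leaves, with 1.2, 1.4 and 2.1 in roots. GLR2.7 encodes a glutamate receptor-like protein. It measured 155, 106 and 197 in leaves, and 1.4, 2 and 8.1 in roots. GLR2.7 was the only one of the 11 named members with its lowest leaf value at 25 ppm and its highest at 50 ppm.

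**Figure D1:**
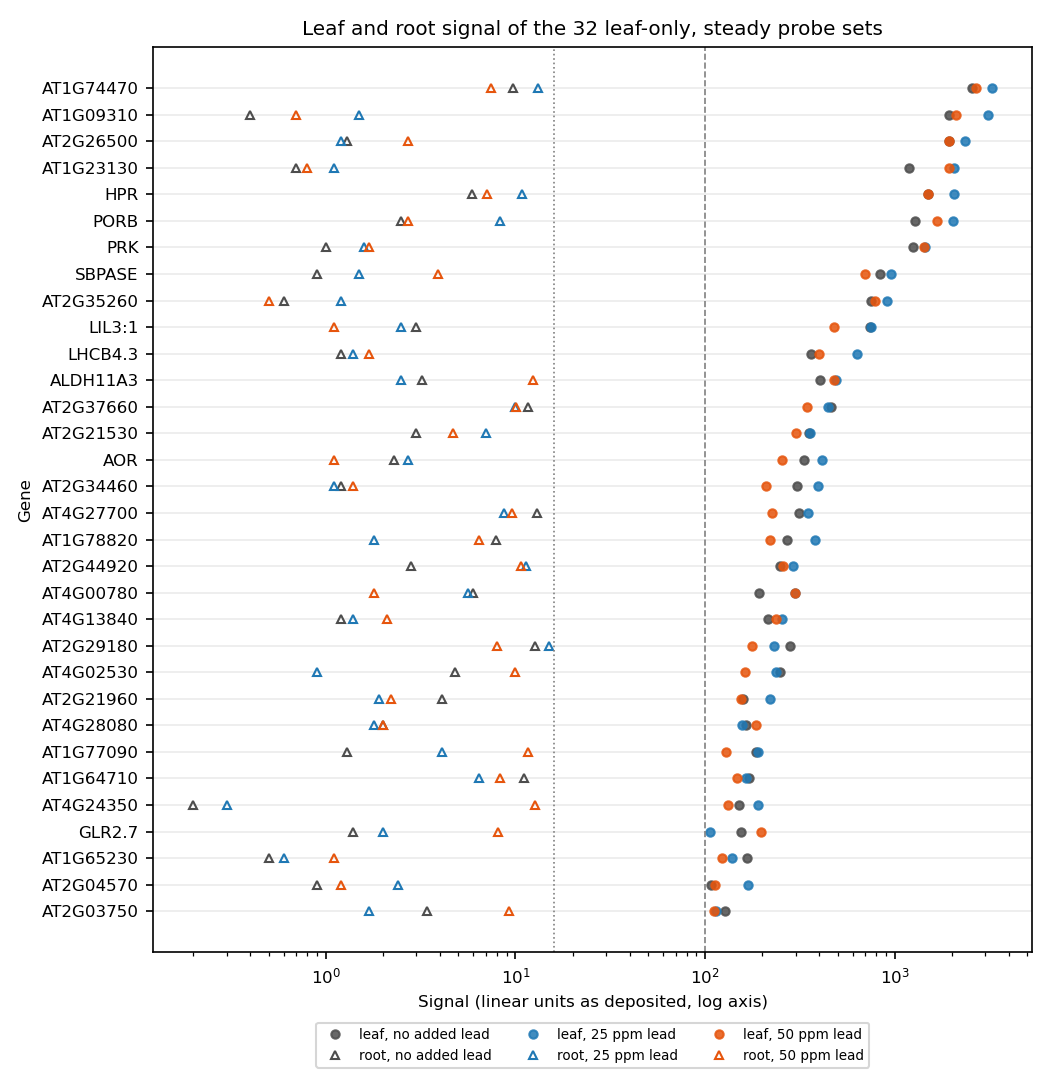
Signal of each of the 32 members on all 6 arrays, on a log axis in the deposited linear units, with leaf arrays as filled circles and root arrays as open triangles, coloured by lead dose. The dashed line marks the leaf minimum of 100 and the dotted line the root ceiling of 16, so the gap between them was set by the selection; leaf values ran from 106 to 3253 and root values from 0.2 to 15.1.

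The remaining 21 members are known in the tables used here only by their locus, and no role is given for them. AT1G09310 measured 1925, 3087 and 2112 in leaves and 0.4, 1.5 and 0.7 in roots. AT1G23130 measured 1181, 2058 and 1931 in leaves and stayed between 0.7 and 1.1 in roots. For AT1G23130 both arrays with lead were well above the control, at 1.74 and 1.64 times, and these were the highest ratios of any member at either dose. AT2G26500 measured 1937, 2353 and 1933 in leaves and between 1.2 and 2.7 in roots. AT2G35260 measured 745, 914 and 787 in leaves and between 0.5 and 1.2 in roots. For both of these the 25 ppm array was the highest and the other leaf arrays differed little.

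Other loci had the low value at 50 ppm. AT2G34460 measured 304, 393 and 209.6 in leaves, with root signals from 1.1 to 1.4. AT4G02530 measured 249, 236 and 162 in leaves, with root signals from 0.9 to 10. AT2G29180 measured 278, 232 and 176 in leaves, with root signals from 8 to 15.1. The control and 25 ppm values were similar for AT4G02530, whereas AT2G29180 was lower on each array with lead than on the control. AT1G65230 had the same order at 166, 138 and 122. AT1G77090 measured 186, 189.7 and 129 and AT4G27700 measured 312, 348 and 226, again with the 50 ppm array lowest. AT4G00780 was the reverse case, with 193 in control leaves and 297 on both arrays with lead.

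The least variable members were AT2G03750, with 127, 114 and 112 in leaves, and AT1G64710, with 169, 164 and 147. Their highest over lowest leaf signals were 1.13 and 1.15. Over all 32 members this ratio had a median of 1.42, and it was under 1.5 for 18 of them (56.25%). Named probe sets within the same leaf limits that reached 16 on at least 1 root array numbered 529. No gene was left out of these by name, so RCA is among them, with 27.6 on the 50 ppm root array. A signal of 16 lies under the median of every array, so root expression of the 529 is not established. The median ratio of the 529 was 1.31, and 78.8% of them were under 1.5, so the members were the less level set. Among named probe sets with at least 100 on all leaf arrays, 94% were within the 2-fold limit, so steadiness by itself was common.

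**Figure D2:**
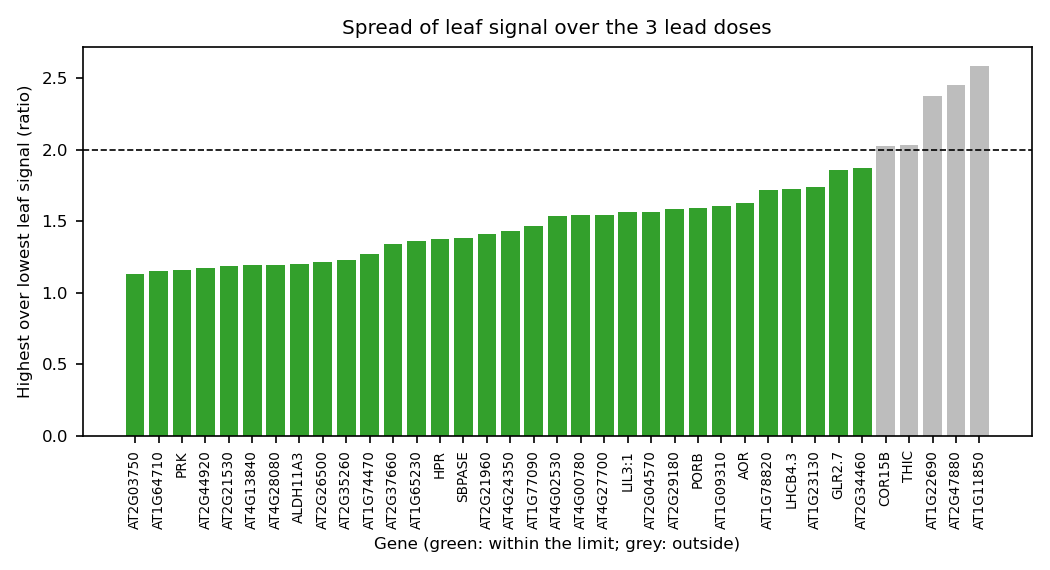
Highest over lowest leaf signal over the control, 25 ppm and 50 ppm leaf arrays, as bars from 0, for the 32 members in green and for the 5 eligible genes that met the leaf and root limits but not the spread limit in grey. The dashed line is the limit of 2; members ran from 1.13 for AT2G03750 to 1.87 for AT2G34460, and the genes outside it began with COR15B at 2.02.

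At the spread limit, the members closest to it were AT2G34460 at 1.87, GLR2.7 at 1.86 and AT1G23130 at 1.74. Just outside lay COR15B at 2.02, THIC at 2.04 and AT1G22690 at 2.37. COR15B, a cold-regulated chloroplast protein, measured 1592, 3223 and 2218 in leaves. THIC, an enzyme of thiamine synthesis, measured 100, 204 and 149. Both therefore shared the order of 25 ppm over 50 ppm over control with PORB. At the leaf minimum, GLR2.7 was just inside with a lowest value of 106 and AT2G04570 with 107, while AT4G28780 was just outside with 98.6 and NdhS, a subunit of the chloroplast NADH dehydrogenase-like complex, with 92.9. At the root ceiling, AT2G29180 was just inside with 15.1, and AT4G01310 and AT1G21830 were just outside with 16.2 and 16.3.

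In roots, member signals lay between 0.2 and 15.1, with medians of 2.4, 1.95 and 3.3 on the control, 25 ppm and 50 ppm arrays. The 30th percentile of all signals was 8, and 18 of the 32 members were under it on all 3 root arrays. A further 8 were under it on 2 root arrays, 3 on 1 root array, and 3 on none. These 3 were AT2G37660, AT4G27700 and AT2G29180. AT2G37660 measured 462, 444 and 345 in leaves and 11.6, 10 and 10.1 in roots, a leaf over root ratio of 39.2 averaged over the doses on the log scale. Ratios were taken at each dose, and where a root value lay under 8 it was raised to 8, which makes that dose's ratio a lower bound. For AT1G09310 leaves were at least 241-fold over roots without lead, at least 386-fold at 25 ppm and at least 264-fold at 50 ppm. For AT1G74470 the ratio was 264 without lead and 246 at 25 ppm, with root values over 8, and at least 333-fold at 50 ppm. For PORB it was at least 159-fold without lead, 244 at 25 ppm and at least 208-fold at 50 ppm. Averaged over the doses on the log scale, the lowest bound was at least 13.9-fold, for AT2G03750. These folds were fixed in part by the selection and are not a test of it.

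The order of the leaf arrays within the limit was not fixed by the selection, although the limit bounded its size. The 25 ppm leaf array had the highest signal for 23 of the 32 members (71.9%), against 31.9% of the 529 comparison probe sets. The 529 were steady in leaves but not under the root ceiling on every root array, and their root expression is not established. The control array was highest for 6 members (18.8%), against 35.9%. The 50 ppm array was highest for 3 members (9.38%), namely GLR2.7, AT4G28080 and AT4G00780, against 32.1%. The lowest value came from the 50 ppm array for 17 members (53.1%), against 34.8% of the 529. It came from the control array for 13 (40.6%), against 32.5%, and from the 25 ppm array for 2 (6.25%), GLR2.7 and AT4G28080, against 32.7%. The share lowest in the control was thus the nearest to its background. Among the 85 unnamed probe sets within the same limits, 65.9% were highest at 25 ppm. The share was 85.7% for the 35 with a mean leaf signal of at least 1000 and 66.7% for the 18 between 300 and 1000. For the 32 under 300 it was 43.8%, and the control array led for 46.9%. How many genes the 85 stand for was not determined.

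**Figure D3:**
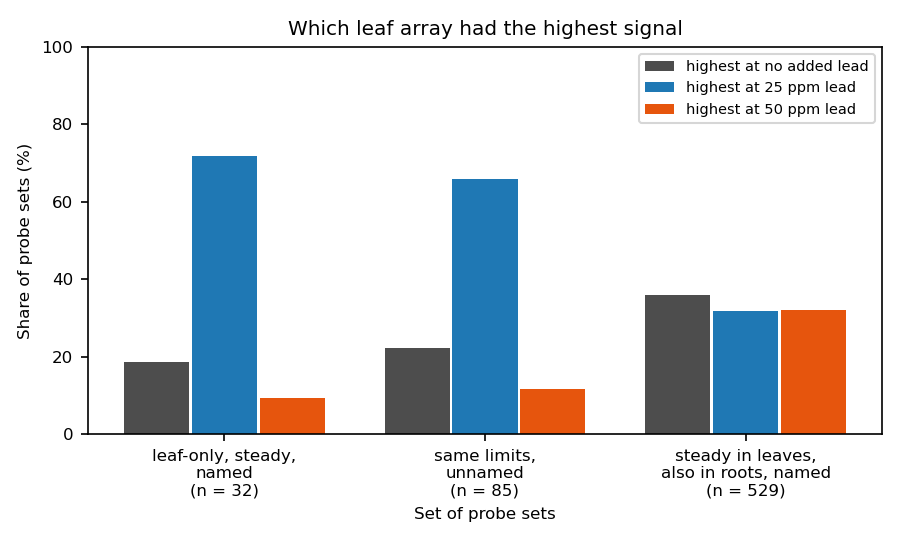
Share of probe sets (percent, from 0 to 100) whose highest leaf signal came from the array with 0, 25 or 50 ppm lead. The sets are the 32 members, the 85 unnamed probe sets within the same limits and the 529 named comparison probe sets. The 529 were steady in leaves but not under the root ceiling on every root array. The 25 ppm array led for 71.9%, 65.9% and 31.9% of these sets, in that order. All shares come from the same 3 leaf arrays.

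The median log2 ratio of the 25 ppm over the control leaf array was 0.26 over the members and -0.01 over the 529 comparison probe sets. For the 50 ppm array it was -0.01 and -0.02. These ratios share the control leaf array, so they are not independent of each other. By a step of 1.2-fold, chosen after the values were seen, 16 members were higher at 25 ppm than in the control and 3 were lower, where 21% and 23.3% of the 529 were higher and lower. The 3 lower ones were GLR2.7, AT2G29180 and AT1G65230. At 50 ppm 4 members were at least 1.2-fold over the control and 11 at least that far under it, where the shares of the 529 were 20.6% and 24.2%. The 4 were AT1G23130, AT4G00780, PORB and GLR2.7. From 25 to 50 ppm, 19 members were at least 1.2-fold lower, against 22.7%, and 1, GLR2.7, was higher, against 21.4%.

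**Figure D4:**
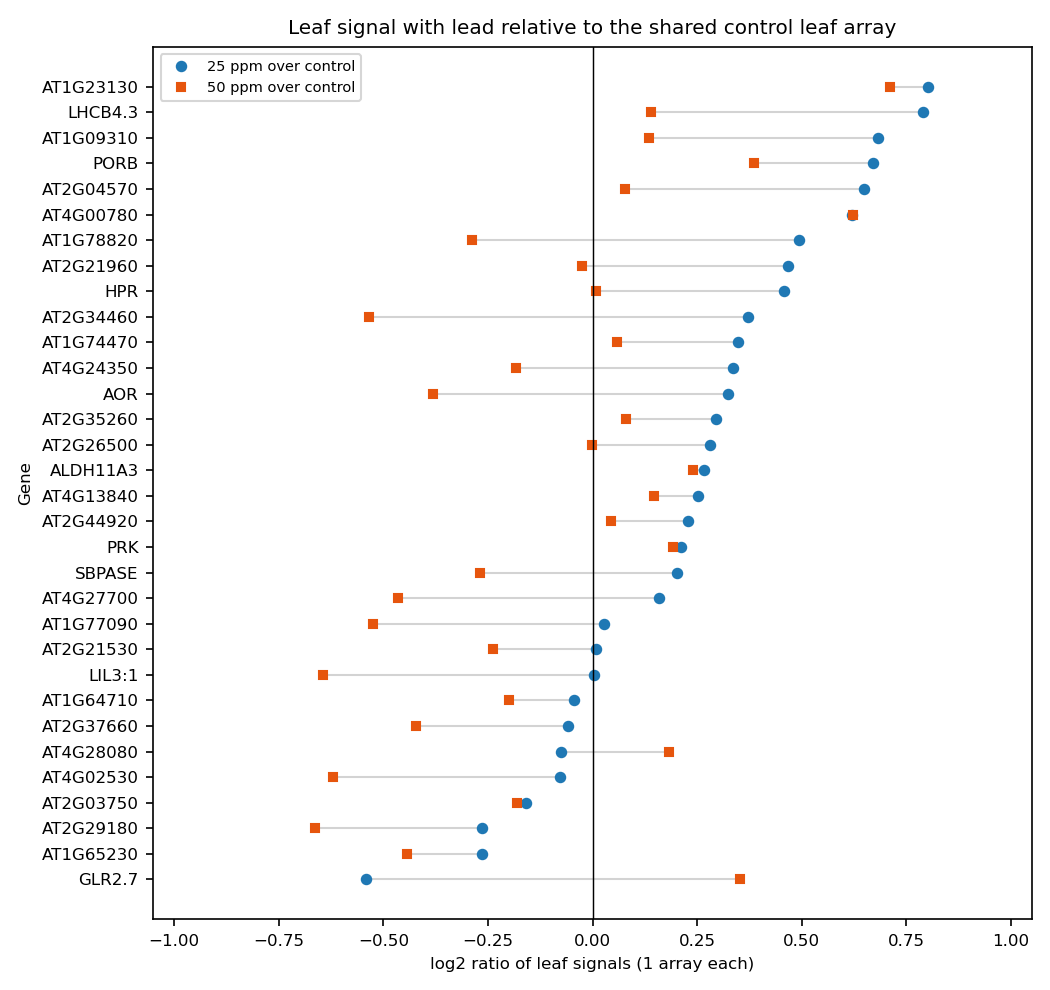
Log2 ratio of the 25 ppm (blue circles) and 50 ppm (orange squares) leaf signal over the control leaf signal for each of the 32 members, ordered by the 25 ppm ratio; each ratio comes from a pair of single arrays and the control array is shared. Ratios at 25 ppm ran from -0.54 for GLR2.7 to 0.80 for AT1G23130, and those at 50 ppm from -0.66 for AT2G29180 to 0.71 for AT1G23130.

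Some array measures moved with this pattern. Spike-in control probe sets named BioB, BioC, BioDn and CreX were higher on the 25 ppm than on the control leaf array for 8 of 9. Their median ratio between these arrays was 1.71. Between the 50 ppm and the control leaf array their median ratio was 0.916, with 3 of 9 higher at 50 ppm. These 50 ppm ratios ran from 0.635 to 1.14. The signal at the 99th percentile was 2864 on the 25 ppm leaf array, 2470 on the control and 2371 on the 50 ppm leaf array. The 95th percentile did not have this order, with 678, 704 and 679.8 on the same arrays. The pattern also went with signal strength. For the 7 members with a mean leaf signal of at least 1000, the median log2 ratio of 25 ppm over control was 0.46, against 0.16 for the 57 comparison probe sets in that range. For the 9 members between 300 and 1000 it was 0.27 against -0.04, and for the 16 members under 300 it was 0.09 against -0.01. From the highest to the lowest range, 100%, 88.9% and 50% of members were highest at 25 ppm. The shares of the comparison probe sets were 52.6%, 30.1% and 29.0%. After quantile normalization, which gives all arrays one distribution, the members' median was 0.24 and 22 of 32 were highest at 25 ppm. The part of the spike-in difference in the members' values was not tested.

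Each dose was also held out of the selection in turn, so that its arrays were not used to choose the probe sets. All 32 members were chosen again each time, so the counts repeat their values and are not an independent check. With the 25 ppm arrays held out, 37 probe sets met the limits on the control and 50 ppm arrays. The held-out 25 ppm leaf signal lay above both other leaf arrays for 26 of the 37 (70.3%). The share was 30.4% of 572 named probe sets within the same leaf limits that reached 16 on the control or 50 ppm root array. No gene was left out of the 572 by name. The held-out leaf signal lay below both for 4 of the 37, against 36.9%. Its median log2 distance from the mean of the other leaf arrays was 0.29, against -0.03. The leaf spread stayed under 2 with the 25 ppm array added for 34 of the 37. The share was 96.1% of 617 named probe sets within the same leaf limits, whatever their root signal. The root signal on the held-out array was under 16 for 36 of the 37, against 97.1% of all named probe sets that were under 16 on the other root arrays. The exception was TROL, a thylakoid rhodanese-like protein, with 17.8.

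With the 50 ppm arrays held out, 47 probe sets were chosen. The held-out 50 ppm leaf signal lay below both other leaf arrays for 25 of them (53.2%), against 38.9%, and above both for 7, against 31%. The leaf spread stayed under 2 for 44 of the 47, against 93.6% of 625 named probe sets chosen by the leaf limits alone. In roots, 37 of the 47 stayed under 16 on the 50 ppm array. The share was 89.5% of 1529 named probe sets under 16 on the other root arrays, whatever their leaf signal. The highest of the 10 others were AT2G44290, with 3.7 and 10.3 on the control and 25 ppm root arrays and 115 at 50 ppm, and AT2G43530, with 10.4, 5.2 and 112. This array also had the highest background, and the part of that background in these values was not tested. With the control arrays held out, 41 were chosen and the control leaf signal lay below both other leaf arrays for 19 (46.3%), against 36.5%, and above both for 7, against 34.3%. The leaf spread stayed under 2 for 38 of the 41, against 96.9% of 621 named probe sets chosen by the leaf limits alone. The control root signal was under 16 for 38 of the 41. The share was 96.2% of 1422 named probe sets under 16 on the other root arrays. In each case all 32 members were among those chosen, as the selection on fewer arrays is looser.

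Other probe sets of the member genes were not used by the selection, although they were read from the same arrays. AT1G78820 had one more, with 417, 825 and 358 in leaves and 19.4, 26.3 and 39.3 in roots. Its member probe set gave 269, 379 and 220.5 in leaves and 7.9, 1.8 and 6.4 in roots. Both had the 25 ppm leaf array highest, but the second probe set varied by more than the 2-fold limit and lay over the root ceiling. AT4G24350 had one more, with 81.4, 97.7 and 94.1 in leaves and 10.2, 16.1 and 18.2 in roots, where its member probe set gave 151, 190.2 and 133 in leaves and 0.2, 0.3 and 12.7 in roots. The 25 ppm array was again the highest leaf array on both, and the second probe set lay under the leaf minimum and over the root ceiling. No other member gene had a second named probe set. Of the member probe sets, 3 carry the suffix of probes shared by several transcripts, those of PORB, LIL3:1 and LHCB4.3, so related transcripts could add to these values. Another 2, those of AT1G78820 and AT4G24350, carry the suffix _i_at. Which probe set reads AT1G78820 or AT4G24350 better was not tested.

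The members lay mostly on the chromosomes that hold most of the named probe sets. By assembly TAIR10.1, 13 of the 32 lie on chromosome 2, 10 on chromosome 1, 8 on chromosome 4, 1 on chromosome 3 and 0 on chromosome 5. Of all named probe sets 37.0% lie on chromosome 2, 22.1% on chromosome 1, 31.7% on chromosome 4, 4.97% on chromosome 3 and 4.15% on chromosome 5. The closest pair of members was GLR2.7 and AT2G29180, with 5 protein-coding genes between them. GLR2.7 and AT2G29180 did not share a leaf order, as GLR2.7 was highest at 50 ppm and AT2G29180 lowest there. PORB and AT4G27700, the next closest pair, had 31 genes between them.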

How the data were processed

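RNA of 6 samples was hybridised to an Affymetrix Arabidopsis array, per the labels. The deposited values are linear signal intensities, 1 per probe set and array, made with software not named in the labels or headers used here. Their trimmed means (2% from each end) lay between 98.97 and 99.6 over the 8247 non-control probe sets, so the arrays appear to have been scaled by the authors. All 6 columns were used and 0 were left out. Signals were used as deposited, with no detection calls. Genes were named from the platform annotation and a RefSeq table of assembly TAIR10.1, which gave 1 gene for 3784 probe sets, several for 70 and none for 4383; 10 named a gene with no match. Left-out families were searched by symbol, synonym and, for peroxidases, a short locus list. The members and gene lists were chosen with earlier results of these data known. Genes named are those with the highest signals, the smallest and largest leaf spreads and ratios, list members and values next to each threshold. No test was made: each group is 1 array and the selection used all 6. The number of arrays limits the precision. The selection code was tested on simulated data. Python 3.11.15, pandas 2.3.3, numpy 2.4.6 and matplotlib 3.10.9 were used.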

Additional observations from a re-analysis of the deposited data

Results flagged for a closer look

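The BioB, BioC, BioDn and CreX spike-in control probe sets are used in no comparison of genes. They had a median ratio of 1.71 between the 25 ppm and the control leaf array. This ratio was flagged as a signal outside the main measurement that exceeded the control sample. The same leaf array was the highest for 23 of the 32 members.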

How the results depend on the processing

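The number of members depended on the limits. It was 18 with a root ceiling of 8, 56 with a ceiling of 32, 64 with a leaf minimum of 50, 20 with a minimum of 200 and 18 with a spread limit of 1.5. It was between 32 and 47 with a spread limit of 3, with other scalings, without each dose or without the 50 ppm root array, and all 32 members were kept in each of these. The share highest on the 25 ppm leaf array was 51.6% with a leaf minimum of 50 (background 31.3%) and 95% with a minimum of 200 (background 34.5%); the cause was not tested. Under the other 8 alternatives, chosen after seeing the data, it ran from 62.5% to 83.3%. The median log2 ratio of 25 ppm over control stayed between 0.21 and 0.31 under all alternatives run. That of 50 ppm over control was -0.03 to 0.01, on either side of 0. The planned promoter motif and protein composition results were not run, as no sequence was used here. No paired analysis was possible because no result comes from a test; leaf over root ratios were taken within each dose. Without detection calls, signals near 8 cannot be ordered.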
